A study of Mus musculus with 16 samples.

Results

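The genes described here are 35 markers of excitatory neurons of the cerebral cortex and of the cortical layers in which these neurons lie. They were taken by name. Of the 35 symbols, 34 stood in the deposited table of 23284 genes, and Lamp5 was matched through its older symbol 6330527O06Rik, so that all 35 were found. They comprise 9 pan-excitatory genes, 9 upper-layer genes, 2 layer 4 genes, 5 layer 5 genes, 8 genes of layers 6 and 6b, and the LIM-only genes Lmo3 and Lmo4. All 35 passed the filter on low values (a mean of at least 0.5 FPKM over the 16 libraries) and were tested together with the other genes, 13978 in all. FPKM, fragments per kilobase of transcript scaled to the number of mapped fragments, is a level per transcript length, so levels of different genes can be set side by side.

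RNA came from the prefrontal cortex of mice aged 2 to 3 months, of both sexes, in 4 genotypes with 4 libraries each. APC cKO mice carried 2 floxed copies of Apc (exons 11 and 12), which encodes the major negative regulator of β-catenin (β-cat). β-cat cOE mice carried 1 copy of Ctnnb1, the gene of β-cat, with a floxed exon 3, whose loss leaves a stabilised protein without its N-terminal degradation domain. APC/β-cat cKO mice carried both floxed copies of Apc together with 2 copies of Ctnnb1 floxed at exons 2 to 6. All 3 mutant lines shared the CamKIIα-Cre-93 transgene, which acts mainly in forebrain excitatory neurons and becomes fully active in the first postnatal weeks. Controls were littermates without Cre, pooled across the lines. The labels do not say that each library is a separate mouse, so the p-values measure the spread between these libraries. By Xist and Y-linked genes, control replicate 1 and APC cKO replicate 1 were female and the other 14 libraries male.

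Excitatory neurons load glutamate into synaptic vesicles and are born in sequence, deep layers first, each layer under its own transcription factors. Neurons of the upper layers connect mainly within the cortex, those of layer 5 also send axons to the striatum, brainstem and spinal cord, and those of layer 6 project to the thalamus. β-cat joins synaptic adhesion complexes and, when stabilised, enters the nucleus and acts with TCF/LEF factors on DNA.

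Depth could not be read from the table, which holds no fragment counts, and 5726 to 6649 of the 23284 genes were listed at 0 per library. Apc was at 40.8 to 50.1 FPKM in controls and at 7.85 to 17.1 in APC cKOs and 6.804 to 12.2 in APC/β-cat cKOs, below every control library. Ctnnb1 was at 155 to 166 FPKM in controls and 151 to 157 in APC/β-cat cKOs, ranges that overlap, so the gene value gave no check of that deletion. 3 marker lists of other cells set some libraries apart. The summed level of 10 striatal projection neuron genes (Drd1, Drd2, Adora2a and others) ranged 5.44-fold, from 136 to 738 FPKM. It was 136 to 535 in controls, 166 to 738 in the APC cKO line, 139.8 to 395 in the β-cat cOE line and 161 to 534 in the APC/β-cat cKO line. The 4 highest libraries were APC cKO replicate 3, control replicate 1, APC/β-cat cKO replicate 4 and β-cat cOE replicate 4. The sum of 10 genes of immature neurons and the olfactory bulb (Dcx, Dlx1, Eomes, Tbx21, Th and others) ranged 6.97-fold. It was 25.2 to 105 FPKM in controls, 38.9 to 176 in the APC cKO line, 50.0 to 156 in the β-cat cOE line and 29.8 to 122 in the APC/β-cat cKO line. APC cKO replicate 1, β-cat cOE replicate 1 and APC/β-cat cKO replicate 2 stood highest. The same 3 libraries were the highest in a list of 6 thalamic and other subcortical genes, whose sum ranged 7.77-fold, from 24.8 to 193 FPKM, and was mostly Calb2 (10.8 to 166 FPKM), which interneurons and olfactory cells also carry. No gene of these lists was at 0 in any library. In contrast, the summed levels of the excitatory and layer groups ranged 1.24-fold to 1.60-fold. Several results are therefore also given without these libraries.

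The 35 genes ranged from Scnn1a at a mean of 0.548 FPKM to Pcp4 at 668 FPKM. Slc17a7, the vesicular glutamate transporter of cortical neurons, was at 464 ± 31.6 FPKM (SD, n = 4) in controls. Slc17a6, the transporter of most subcortical glutamate neurons, was at 5.90 ± 0.910 FPKM (SD, n = 4), and the ratio of the pair was 68.3 to 107 in control libraries. Layer 6 and layer 5 markers (Tbr1, Rprm, Pcp4, Etv1) and upper-layer markers (Lamp5, Calb1, Rasgrf2) were all well detected. Rorb and Scnn1a, which mark layer 4, a layer that is thin or missing in the frontal cortex of mice, averaged 4.67 and 0.548 FPKM. From the lowest to the highest library, 26 of the 35 genes ranged less than 2-fold (1.28-fold for Camk2a to 1.82-fold for Pou3f1). The other 9 of 35 (25.7%) ranged more widely, beside 21.9% of all genes tested. They were Neurod6, Otof, Scnn1a, Crym, Foxp2, Ntsr1, Syt6, Ctgf and Nxph4.

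**Figure D1:**
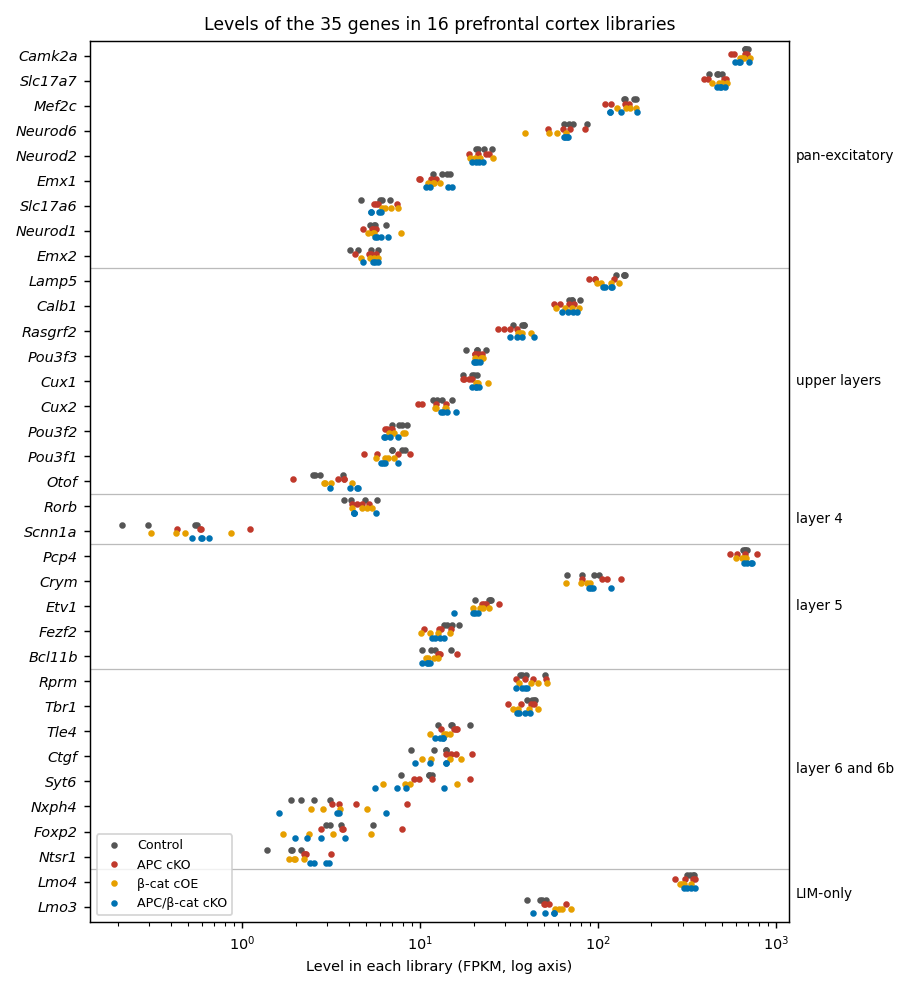
Level of each of the 35 genes in each of the 16 libraries, in FPKM on a log axis, with 1 point per library coloured by genotype and genes grouped by layer. Levels run from below 1 FPKM (Scnn1a) to the highest (Pcp4, Camk2a), and for most genes the 4 genotypes lie on top of each other.

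No excitatory or layer gene passed the test in any mutant line. With limma, 0 of 35 had an adjusted p under 0.05 in the APC cKO line, beside 0.0429% of all genes tested (6 genes). The same held for 0 of 35 in the β-cat cOE line, beside 0.0143% of all genes, and for 0 of 35 in the APC/β-cat cKO line, beside 0.207%. At an unadjusted p under 0.05 the counts were 7 of 35 (20.0%) in the APC cKO line, beside 10% of all genes, 5 of 35 (14.3%) in the β-cat cOE line, beside 5.07%, and 6 of 35 (17.1%) in the APC/β-cat cKO line, beside 14.2%. Single libraries moved these counts: 13 without APC cKO replicate 2 for the first, 3 without β-cat cOE replicate 1 for the second and 3 without APC/β-cat cKO replicate 3 for the third. With sex as a covariate the second was 8. Without the 3 libraries highest in immature neuron and olfactory genes the 3 counts were 7, 3 and 6, without the 4 highest in striatal genes 9, 2 and 5, and with both list levels as covariates 6, 8 and 12. The share of all genes at that p was not read in the refits, so these counts are no result about the members. The whole table moved too. Its adjusted calls were 6, 2 and 29 in the main fit, and 5, 2 and 12, then 35, 4 and 35, then 6, 3 and 94 in these 3 refits. The median log2 difference from control over the 35 genes was -0.014 in the APC cKO line, -0.041 in the β-cat cOE line and -0.050 in the APC/β-cat cKO line, beside -0.0042, -0.0036 and 0.0031 over all genes. Lower in the mutant were 19, 20 and 21 of the 35, beside 51.4%, 51.5% and 49.1% of all genes.

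How large a change could have been missed was read from the intervals. The 95% interval of the difference lay within 0.5 of 0 on the log2 scale (1.41-fold) for 24 of 35 genes in the APC cKO line, 25 in the β-cat cOE line and 26 in the APC/β-cat cKO line. For Camk2a, the kinase whose promoter drives the Cre, it ran from -0.27 to 0.03, from -0.19 to 0.11 and from -0.24 to 0.06. For Foxp2, Syt6 and Nxph4 it was wider than 1 log2 unit in each line. In such bulk RNA, fewer cells of a type and less RNA per cell cannot be told apart.

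**Figure D2:**
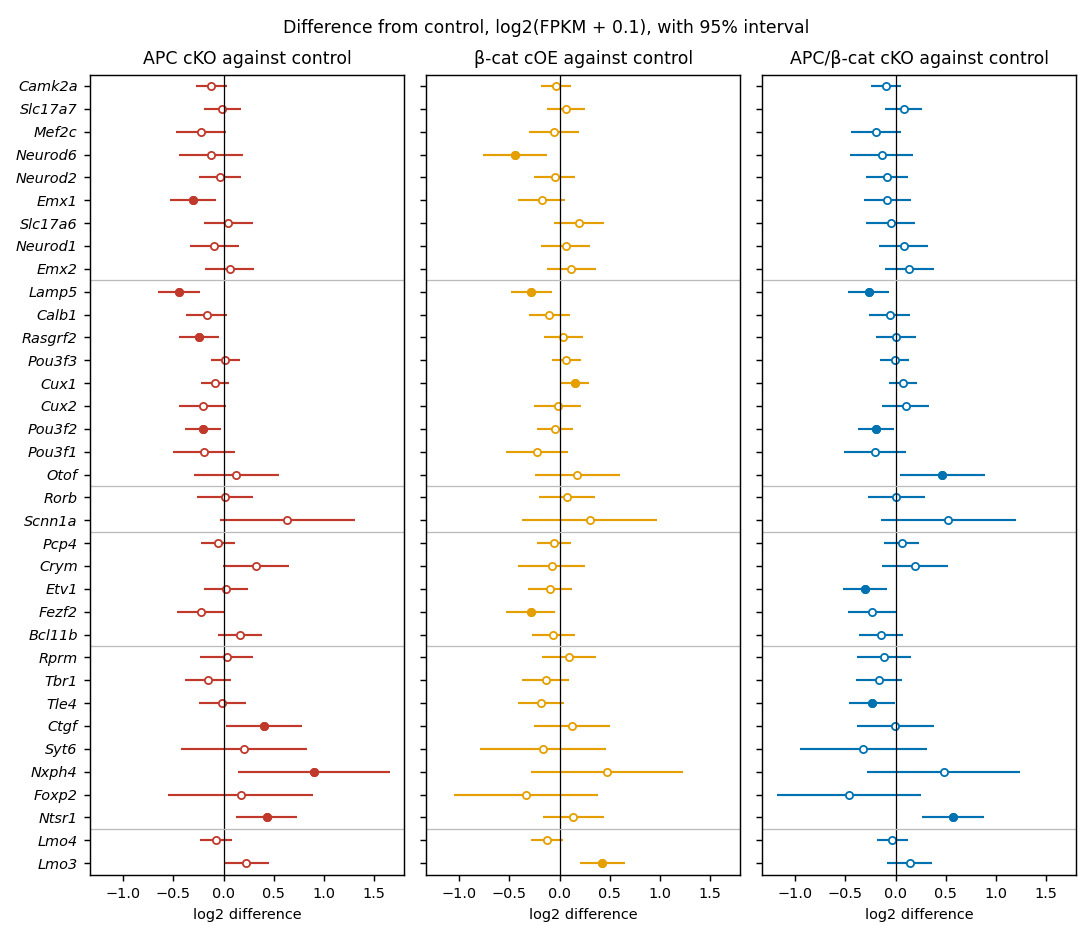
Difference of each mutant line from controls for the 35 genes, in log2(FPKM + 0.1), with points for the limma estimate, bars for its 95% interval and filled points for an unadjusted p under 0.05. Most intervals cross 0. Lamp5 lies lower in all 3 lines, Ntsr1 lies higher in both lines with floxed Apc, and Lmo3 is highest in β-cat cOEs, none of them past an adjusted p of 0.05.

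The most abundant pan-excitatory gene was Camk2a, the α subunit of the synaptic calcium- and calmodulin-dependent kinase. It stood at 693, 668, 669 and 681 FPKM in the 4 control libraries, 583, 692, 559 and 671 in the APC cKO ones, 641, 660.4, 718 and 629 in the β-cat cOE ones and 704, 590.2, 631 and 621 in the APC/β-cat cKO ones. The control libraries were the tightest group, and every mutant group overlapped them. Slc17a7 differed from control by -0.014, 0.064 and 0.080 log2 units in APC cKOs, β-cat cOEs and APC/β-cat cKOs. Mef2c, an activity-regulated transcription factor of excitatory neurons, was at 151 ± 11.97 FPKM in controls, 129.99 ± 18.4 in the APC cKO line, 146 ± 14.9 in the β-cat cOE line and 133 ± 22.99 in the APC/β-cat cKO line (SD, n = 4 each), with limma adjusted p of 0.535, 0.974 and 0.460.

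Neurod6, a basic helix-loop-helix factor of postmitotic excitatory neurons, was the pan-excitatory gene with the largest difference, in β-cat cOEs. Its level was 86.6, 64.5, 72.3 and 68.99 FPKM in the 4 control libraries, 52.4, 84.2, 63.5 and 70.01 in the APC cKO ones, 39.1, 58.8, 66.5 and 52.8 in the β-cat cOE ones and 66.6, 64.4, 67.7 and 65.3 in the APC/β-cat cKO ones. The 3 lowest of the β-cat cOE libraries lay under every control, while replicate 3 lay among them. The log2 difference was -0.45 (SE 0.15, limma adjusted p = 0.946), and the exact permutation p was 0.0571. It was -0.30 without the 3 libraries highest in immature neuron and olfactory genes, among them β-cat cOE replicate 1, which held the lowest Neurod6 of all 16. Its relatives Neurod1 and Neurod2 differed from control by -0.092 to 0.082 log2 units over the 3 lines.

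Emx1, a homeobox gene of the dorsal forebrain, measured 11.9, 14.8, 14.3 and 13.3 FPKM in the 4 control libraries, 9.93, 12.3, 10.04 and 11.6 in the APC cKO ones, 11.1, 11.997, 12.9 and 11.8 in the β-cat cOE ones and 14.4, 10.8, 11.3 and 15.1 in the APC/β-cat cKO ones. In APC cKOs 3 of 4 libraries lay below all controls, a log2 difference of -0.30 (SE 0.11, limma adjusted p = 0.383), with an exact permutation p of 0.0571. Emx2, its paralog, was at 4.92 ± 0.798 FPKM in controls and differed by 0.062, 0.12 and 0.14 log2 units. Slc17a6 stood at 5.99, 4.64, 6.82 and 6.12 FPKM in the 4 control libraries, 7.40, 5.82, 5.65 and 5.49 in the APC cKO ones, 7.48, 6.90, 6.35 and 6.14 in the β-cat cOE ones and 5.34, 5.30, 5.91 and 6.05 in the APC/β-cat cKO ones. All 4 β-cat cOE libraries exceeded the 4 APC/β-cat cKO libraries, while each overlapped the controls. The 2 highest Slc17a6 values lay in β-cat cOE replicate 1 and APC cKO replicate 1. Both are among the 3 libraries highest in immature neuron and olfactory genes. The third of these, APC/β-cat cKO replicate 2, was among the 3 lowest in Slc17a6. The part of other cells in its level was not tested.

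Among upper-layer genes, Lamp5 had the largest difference from control relative to its error. Lamp5, a membrane protein of the lysosome family found in upper-layer excitatory neurons and also in a class of interneurons, lies on chromosome 2 from 136057927 to 136069917 on the plus strand (mm10). It stood at 126, 141, 141 and 139.7 FPKM in the 4 control libraries, 96.1, 122, 96.7 and 89.3 in the APC cKO ones, 98.7, 118, 132 and 104 in the β-cat cOE ones and 119, 107, 109 and 119.95 in the APC/β-cat cKO ones. Every APC cKO library and every APC/β-cat cKO library lay below all 4 controls. In β-cat cOEs 3 of 4 did so, and replicate 3 lay above the lowest control. The log2 difference was -0.44 (SE 0.097, limma adjusted p = 0.204) in the APC cKO line, -0.28 (SE 0.097, limma adjusted p = 0.946) in the β-cat cOE line and -0.27 (SE 0.097, limma adjusted p = 0.281) in the APC/β-cat cKO line. The exact permutation p was 0.0286, 0.0571 and 0.0286, where 0.0286 is the smallest that 4 against 4 can give. Without APC cKO replicate 2, the APC cKO library with the highest Lamp5, the difference was -0.54 and the adjusted p 0.0256, so 1 library decided whether Lamp5 passed. In β-cat cOEs the difference was -0.22 without the 3 libraries highest in immature neuron and olfactory genes. Over leaving out each of the 16 libraries, the difference in APC cKOs ran from -0.54 to -0.39 and the adjusted p from 0.0256 to 0.533.

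4 other upper-layer genes reached an unadjusted p under 0.05 in some line. Pou3f2, a POU-domain factor of upper-layer neurons, measured 6.96, 7.598, 7.96 and 8.43 FPKM in the 4 control libraries, 6.34, 6.90, 6.57 and 6.94 in the APC cKO ones, 6.71, 7.14, 7.99 and 8.27 in the β-cat cOE ones and 7.57, 6.37, 6.25 and 6.76 in the APC/β-cat cKO ones. The 4 APC cKO libraries lay below all 4 controls, and the difference was -0.20 (SE 0.084, limma adjusted p = 0.435) there and -0.20 (SE 0.084, limma adjusted p = 0.320) in APC/β-cat cKOs. Groups that do not overlap with control in APC cKOs were found for 4 of 35 genes (Pou3f2 and Lamp5 lower, Ntsr1 and Nxph4 higher), beside 5.47% of all genes tested. Rasgrf2, an exchange factor for Ras that marks upper layers, was at 33.2, 37.4, 38.5 and 38.3 FPKM in the 4 control libraries, 29.8, 35.05, 27.5 and 32.03 in the APC cKO ones, 36.4, 37.5, 41.9 and 35.5 in the β-cat cOE ones and 43.9, 35.1, 37.3 and 32.2 in the APC/β-cat cKO ones. The APC cKO value was -0.25 (SE 0.093, limma adjusted p = 0.391), with 3 of 4 libraries below all controls. Without the 4 libraries highest in striatal genes, which include the lowest Rasgrf2 value, the APC cKO difference was -0.24, and with both list levels as covariates -0.093.

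Cux1, a homeobox factor of layers 2 to 4, stood at 19.7, 20.1, 20.9 and 17.5 FPKM in the 4 control libraries, 19.6, 18.9, 17.4 and 17.7 in the APC cKO ones, 24.1, 21.1, 20.7 and 21.05 in the β-cat cOE ones and 20.6, 21.4, 19.6 and 20.7 in the APC/β-cat cKO ones. β-cat cOEs were the highest group at 0.15 (SE 0.066, limma adjusted p = 0.946), with 3 of 4 libraries above all controls. It was 0.10 without the 3 libraries highest in immature neuron and olfactory genes, and also without β-cat cOE replicate 1, the highest library, or without control replicate 4. APC cKOs were the lowest and lay below every library of both other mutant lines, the closest by less than the printed digits. Otof, which encodes otoferlin, measured 3.69, 2.52, 2.58 and 2.76 FPKM in the 4 control libraries, 1.92, 3.48, 3.75 and 3.74 in the APC cKO ones, 2.88, 3.15, 2.93 and 4.15 in the β-cat cOE ones and 4.03, 3.13, 4.46 and 4.43 in the APC/β-cat cKO ones, and in APC/β-cat cKOs 3 of 4 libraries lay above all controls, at 0.47 (SE 0.20, limma adjusted p = 0.320). The remaining upper-layer genes Cux2, Pou3f1, Pou3f3 and Calb1 differed from control by -0.23 to 0.10 log2 units, each within overlapping groups. In APC cKOs 7 of the 9 upper-layer genes were lower and 3 had an unadjusted p under 0.05, with a median log2 difference of -0.19, beside 51.4% lower and 10% at that p over all genes. The median was -0.018 in β-cat cOEs, and the APC/β-cat cKO line had -0.0064.

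**Figure D3:**
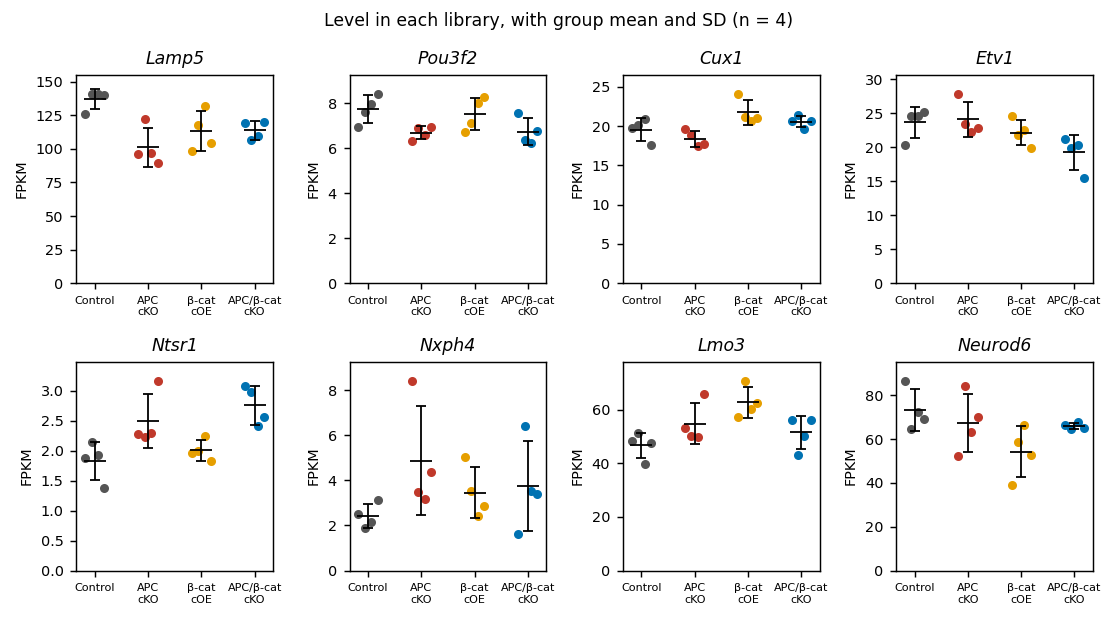
Level of 8 genes in each library (points) by genotype, in FPKM from 0, with the group mean and SD (n = 4). For Lamp5 all APC cKO and APC/β-cat cKO points lie below the controls, for Ntsr1 above them, and for Lmo3 all β-cat cOE points lie above them. Nxph4 in APC cKOs is spread by 1 library at 8.42 FPKM.

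For layer 4, Rorb, a nuclear receptor, was at 4.88, 4.12, 3.75 and 5.70 FPKM in the 4 control libraries, 4.44, 5.20, 4.13 and 4.72 in the APC cKO ones, 4.17, 4.74, 5.38 and 5.01 in the β-cat cOE ones and 5.68, 4.24, 4.27 and 4.28 in the APC/β-cat cKO ones. The 4 groups overlapped, and the differences from control were 0.017, 0.076 and 0.0082 log2 units. Scnn1a, an epithelial sodium channel subunit, was near the floor of the filter in all groups, with a range of 0.212 to 1.11 FPKM and intervals wider than 1 log2 unit.

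Of the layer 5 genes, Pcp4, a calmodulin regulator, was the most abundant. It stood at 689, 672, 653 and 674 FPKM in the 4 control libraries, 783, 667, 551 and 608 in the APC cKO ones, 659, 681, 601 and 649 in the β-cat cOE ones and 663, 733, 684 and 729 in the APC/β-cat cKO ones. The controls spanned less than each mutant group, and every group overlapped them. Fezf2, the factor that specifies subcerebral projection neurons, measured 14.1, 16.6, 15.2 and 13.6 FPKM in the 4 control libraries, 10.6, 14.9, 12.8 and 13.1 in the APC cKO ones, 10.2, 12.7, 14.7 and 11.4 in the β-cat cOE ones and 12.2, 13.6, 11.7 and 12.99 in the APC/β-cat cKO ones. All 4 APC/β-cat cKO libraries lay below the 4 controls, the highest of them by less than the printed digits, a log2 difference of -0.24 (SE 0.11, limma adjusted p = 0.356), and β-cat cOEs differed by -0.29 (SE 0.11, limma adjusted p = 0.946) with 3 of 4 libraries below the controls. Without the 3 libraries highest in immature neuron and olfactory genes these were -0.27 and -0.21. Groups that do not overlap with control in APC/β-cat cKOs were found for 3 of 35 genes (Lamp5 and Fezf2 lower, Ntsr1 higher), beside 5.21% of all genes.

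Etv1, an ETS factor of layer 5 neurons, stood at 20.3, 24.6, 24.6 and 25.1 FPKM in the 4 control libraries, 27.9, 23.4, 22.2 and 22.8 in the APC cKO ones, 24.5, 21.7, 22.5 and 19.9 in the β-cat cOE ones and 21.2, 19.9, 20.4 and 15.5 in the APC/β-cat cKO ones. The APC/β-cat cKO libraries lay below all 4 APC cKOs and 2 of them below all controls, at -0.30 (SE 0.10, limma adjusted p = 0.278) against control and 0.33 (SE 0.10, limma adjusted p = 0.284) for APC cKOs relative to the APC/β-cat cKOs. With the levels of the striatal and the immature neuron lists as covariates, the latter was 0.39 with an adjusted p of 0.0160, and Etv1 was then the 1 member of 35 that passed in that comparison. In that fit 96 genes passed over the whole table, beside 30 without covariates. Bcl11b (Ctip2), which acts downstream of Fezf2 and is also abundant in striatal neurons, measured 14.9, 12.1, 10.3 and 11.55 FPKM in the 4 control libraries, 12.7, 12.8, 16.2 and 12.9 in the APC cKO ones, 10.7, 12.6, 11.1 and 12.005 in the β-cat cOE ones and 10.3, 11.4, 10.9 and 11.1 in the APC/β-cat cKO ones. Its 2 highest libraries, APC cKO replicate 3 and control replicate 1, were also the 2 highest in striatal genes, and the part of these in its level was not tested. Crym, a thyroid hormone binding protein, was at 86.2 ± 15.6 FPKM in controls and 108 ± 22.2 in APC cKOs (SD, n = 4), a difference of 0.32 (SE 0.16, limma adjusted p = 0.504), or 0.46 without the 3 libraries highest in immature neuron and olfactory genes. Its 2 highest libraries were APC cKO replicate 3 (135 FPKM) and APC/β-cat cKO replicate 4 (119 FPKM). Both were among the 4 highest in striatal genes, and the part of these in the Crym level was not tested.

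In layer 6, Rprm, a cell cycle inhibitor used as a layer 6 marker, had the highest level of the group after averaging all libraries. It stood at 39.6, 50.5, 37.5 and 36.7 FPKM in the 4 control libraries, 34.9, 43.1, 38.7 and 51.2 in the APC cKO ones, 36.1, 51.5, 41.9 and 46.1 in the β-cat cOE ones and 39.9, 37.3, 34.4 and 39.1 in the APC/β-cat cKO ones, and all groups overlapped. Ntsr1, the neurotensin receptor that marks corticothalamic neurons of layer 6, lies on chromosome 2 from 180499976 to 180544979 on the plus strand. It was 1.88, 2.14, 1.92 and 1.38 FPKM in the 4 control libraries, 2.27, 2.23, 2.30 and 3.16 in the APC cKO ones, 1.96, 1.99, 2.24 and 1.83 in the β-cat cOE ones and 3.07, 2.97, 2.41 and 2.56 in the APC/β-cat cKO ones. All 4 APC cKO and all 4 APC/β-cat cKO libraries lay above every control, while the β-cat cOEs overlapped the controls. The log2 difference was 0.43 (SE 0.14, limma adjusted p = 0.350) in the APC cKO line, 0.14 (SE 0.14, limma adjusted p = 0.956) in the β-cat cOE line and 0.57 (SE 0.14, limma adjusted p = 0.155) in the APC/β-cat cKO line. The exact permutation p was 0.0286 in APC cKOs and 0.0286 in APC/β-cat cKOs, the smallest possible. Groups that do not overlap always give this value, so it restates the separation. The APC cKO value was 0.47 without the 3 libraries highest in immature neuron and olfactory genes and 0.48 without the 4 highest in striatal genes, and the APC/β-cat cKO values were 0.54 and 0.62.

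Nxph4, a neurexophilin secreted by layer 6b neurons, measured 2.53, 1.87, 2.14 and 3.12 FPKM in the 4 control libraries, 8.42, 3.51, 3.19 and 4.40 in the APC cKO ones, 5.04, 3.53, 2.43 and 2.84 in the β-cat cOE ones and 1.61, 6.43, 3.52 and 3.40 in the APC/β-cat cKO ones. The APC cKOs lay above all controls, at 0.90 (SE 0.36, limma adjusted p = 0.421), but replicate 1 alone was at 8.42 FPKM. The 3 libraries highest in immature neuron and olfactory genes, 1 of each mutant line, held the 3 highest Nxph4 values (5.04 to 8.42 FPKM, against 1.61 to 4.40 in the other 13). Without them the APC cKO difference was 0.61, and with both list levels as covariates 0.59. The same 3 libraries held the 3 highest values of Syt6, a synaptotagmin of layer 6 neurons (13.6 to 19.2 FPKM, against 5.61 to 11.8), and the 3 lowest of Tbr1, a T-box factor of layer 6 (31.2 to 35.2 FPKM, against 35.7 to 46.0). Of all genes tested, 2.30% had their 3 highest and 1.43% their 3 lowest values in these libraries. Syt6 in APC cKOs was 0.21 log2 units from control and -0.020 without them.

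Foxp2, a forkhead factor of layer 6 neurons that striatal projection neurons also carry, ranged from 1.69 to 7.89 FPKM. Its 4 highest values (3.81 to 7.89 FPKM, against 1.69 to 3.69 in the other 12) lay in the 4 libraries highest in striatal genes, 1 in each genotype, as for 0.444% of all genes tested. Its differences from control, 0.17, -0.33 and -0.46 log2 units, had standard errors of 0.34. What part other cells had in the levels of Nxph4, Syt6, Tbr1 and Foxp2 was not tested. Ctgf, a secreted matrix protein of layer 6b, stood at 14.1, 14.0, 8.93 and 12.02 FPKM in the 4 control libraries, 15.9, 19.5, 15.02 and 14.1 in the APC cKO ones, 11.6, 17.02, 10.2 and 14.8 in the β-cat cOE ones and 11.4, 14.0, 14.0 and 9.41 in the APC/β-cat cKO ones. In APC cKOs 3 of 4 libraries lay above all controls, at 0.40 (SE 0.18, limma adjusted p = 0.466), and all 4 lay above the APC/β-cat cKOs. Without control replicate 3, the lowest library, the difference from control was 0.26. Tle4, a corepressor of corticothalamic neurons, was 19.0, 15.01, 12.7 and 15.2 FPKM in the 4 control libraries, 13.1, 16.2, 16.02 and 15.6 in the APC cKO ones, 11.46, 13.7, 13.9 and 14.8 in the β-cat cOE ones and 13.5, 12.1, 12.95 and 13.4 in the APC/β-cat cKO ones, with the APC/β-cat cKOs at -0.24 (SE 0.11, limma adjusted p = 0.345) and 3 of their 4 libraries within the control range. Without control replicate 1, the highest library, the Tle4 difference was -0.13, and without the 4 libraries highest in striatal genes -0.15.

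**Figure D4:**
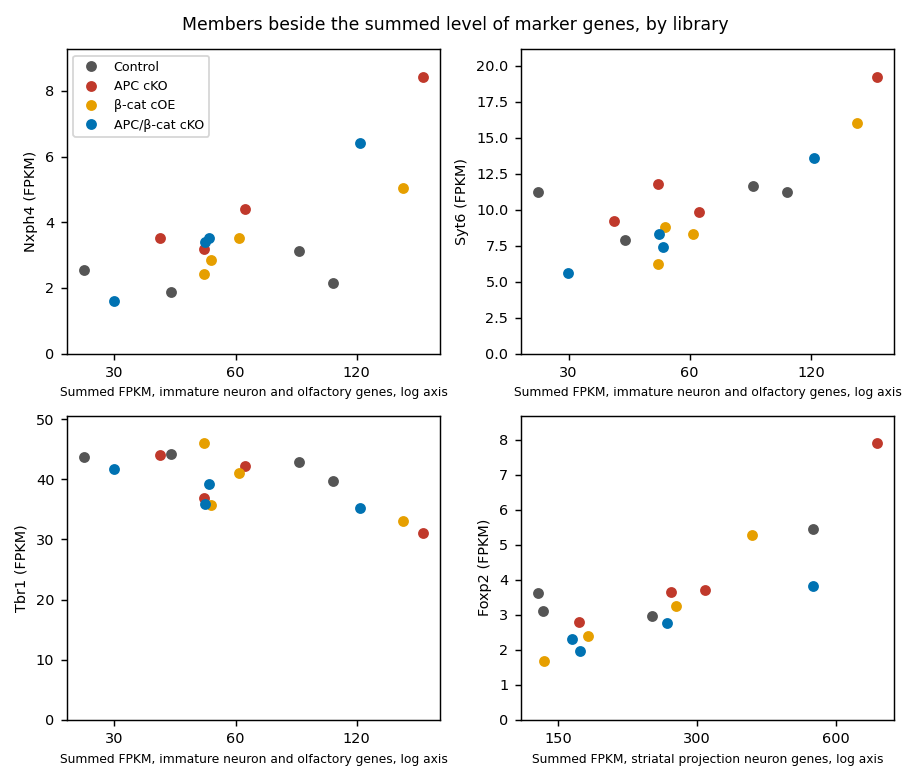
Level of Nxph4, Syt6 and Tbr1 (FPKM) against the summed level of 10 immature neuron and olfactory genes, and of Foxp2 against that of 10 striatal genes, with 1 point per library coloured by genotype and a log horizontal axis. The 3 libraries furthest right in the first 3 panels, 1 of each mutant line, hold the highest Nxph4 and Syt6 and the lowest Tbr1, and the 4 furthest right in the last hold the highest Foxp2.

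Lmo3 and Lmo4 encode LIM-only proteins, which bridge transcription factors without binding DNA. Lmo4 was among the most abundant members, at 317, 331, 345 and 340.0 FPKM in the 4 control libraries, 270.0, 352, 308 and 342 in the APC cKO ones, 297, 306, 331 and 291 in the β-cat cOE ones and 352, 303, 318 and 334 in the APC/β-cat cKO ones. All mutant groups overlapped the controls, and the differences were -0.075, -0.12 and -0.031 log2 units. Lmo3, on chromosome 6 from 138364481 to 138581968 on the minus strand, stood at 48.2, 51.2, 39.9 and 47.5 FPKM in the 4 control libraries, 53.1, 50.2, 49.9 and 66.0 in the APC cKO ones, 57.2, 70.8, 60.4 and 62.6 in the β-cat cOE ones and 56.3, 43.3, 50.4 and 56.4 in the APC/β-cat cKO ones. The 4 β-cat cOE libraries lay above all controls, the 1 gene of 35 whose groups did not overlap in that comparison, beside 3.08% of all genes tested. The difference was 0.43 (SE 0.11, limma adjusted p = 0.946) with an exact permutation p of 0.0286. In APC cKOs it was 0.23 (SE 0.11, limma adjusted p = 0.499), and the APC/β-cat cKO value was 0.14 (SE 0.11, limma adjusted p = 0.557). The β-cat cOE value was 0.47, 0.44 and 0.46 without the libraries high in immature neuron genes, without those high in striatal genes and with both lists as covariates.

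The promoters of the 3 genes with the clearest separations are shown because stabilised β-cat acts on DNA through TCF/LEF factors. Each is the 250 bases before the start site, 5′ to 3′ on the strand of the gene, from RefSeq on GRCm38.p6, and capitals mark matches to CTTTGAA or CTTTGAT or CTTTGTA or CTTTGTT on either strand.
Lamp5, chr2:136057498-136057747, plus strand: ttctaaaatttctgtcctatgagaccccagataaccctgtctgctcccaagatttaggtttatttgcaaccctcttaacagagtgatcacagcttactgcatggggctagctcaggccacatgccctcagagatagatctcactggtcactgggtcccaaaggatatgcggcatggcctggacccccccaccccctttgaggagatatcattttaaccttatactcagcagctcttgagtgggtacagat
Ntsr1, chr2:180499726-180499975, plus strand: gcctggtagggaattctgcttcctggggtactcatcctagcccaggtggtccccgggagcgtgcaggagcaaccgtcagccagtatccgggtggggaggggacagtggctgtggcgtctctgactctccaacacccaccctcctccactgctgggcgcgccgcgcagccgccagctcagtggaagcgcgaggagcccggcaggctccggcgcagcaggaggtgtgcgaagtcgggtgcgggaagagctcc
Lmo3, chr6:138581969-138582218, minus strand: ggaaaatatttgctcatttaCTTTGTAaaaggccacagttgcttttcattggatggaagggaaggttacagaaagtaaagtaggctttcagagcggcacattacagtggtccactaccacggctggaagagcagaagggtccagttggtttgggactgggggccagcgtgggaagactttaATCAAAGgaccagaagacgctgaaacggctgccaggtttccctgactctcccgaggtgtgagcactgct
Lmo3 held 2 matches, starting 230 and 69 bases before the start, and the windows of Lamp5 and Ntsr1 held none. The Lamp5 window is the nearest of 2 and its start site lies 179 bases before the gene start given with the mm10 coordinates above. Windows were found for 26 of the 35 members, 38 windows in all, and 6 of 38 (15.8%) held a match, beside 14.8% of all 32851 windows. Those 6 belonged to Mef2c, Cux2, Pou3f2, Bcl11b, Tbr1 and Lmo3. The E-box CAGATG, in the form bound by Neurod factors, was found on either strand in 5 of 38 member windows (13.2%) and 14.4% of all windows, and no match of one motif overlapped one of the other. Foxp2, Ctgf, Nxph4, Crym, Calb1, Pou3f1, Otof, Scnn1a and Camk2a were not among the windows.

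The study set the lines with elevated β-cat (APC cKO and β-cat cOE) against the line with reduced β-cat and controls. Its own list held genes shared by both elevated lines, by another method and threshold. Here the mean of the elevated lines was set against that of the other groups. In this contrast 0 of 35 members passed with limma, beside 0.0572% of all genes. An unadjusted p under 0.05 was found for 3 of 35 (8.57%), beside 8.84%. The log2 difference was -0.23 (SE 0.068, limma adjusted p = 0.341) for Lamp5, -0.20 (SE 0.078, limma adjusted p = 0.474) for Emx1 and 0.26 (SE 0.076, limma adjusted p = 0.341) for Lmo3. Lamp5 was below controls in APC/β-cat cKOs too. The test of any difference among the 4 genotypes called 0 of 35, beside 0.250% of all genes, and 6 of 35 (17.1%) had an unadjusted p under 0.05 (Lamp5, Ntsr1, Lmo3, Cux1, Etv1 and Rasgrf2), beside 12%. Leaving out APC cKO replicate 2 brought that count of adjusted calls to 1, as did both marker lists as covariates.

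The mutant lines were also set against each other. These comparisons share libraries with those above, so their values stand beside them and are no separate support. Between APC cKOs and APC/β-cat cKOs 0 of 35 members passed, beside 0.215% of all genes, 6 had an unadjusted p under 0.05, beside 10.3%, and 4 of 35 had groups that did not overlap, beside 5.49%. In APC cKOs Cux1 was lower (-0.16 log2 units), and Bcl11b (0.31), Etv1 (0.33) and Ctgf (0.41) were higher. Between β-cat cOEs and APC/β-cat cKOs 0 of 35 passed, beside 0.229%, 2 had an unadjusted p under 0.05, beside 11.9%, and 3 of 35 did not overlap, beside 6.30%. Slc17a6 (0.24) and Lmo3 (0.29) were higher in β-cat cOEs and Ntsr1 (-0.44) was lower. Between APC cKOs and β-cat cOEs 0 of 35 passed, beside 0.0429%, 5 had an unadjusted p under 0.05, beside 7.57%, and 3 of 35 did not overlap, beside 5.20%. Here Cux1 (-0.24) and Rasgrf2 (-0.28) were lower in APC cKOs and Bcl11b (0.22, or 0.14 without APC cKO replicate 3) was higher. The smallest limma adjusted p of any member in these 3 comparisons was 0.284, 0.248 and 0.325.

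**Figure D5:**
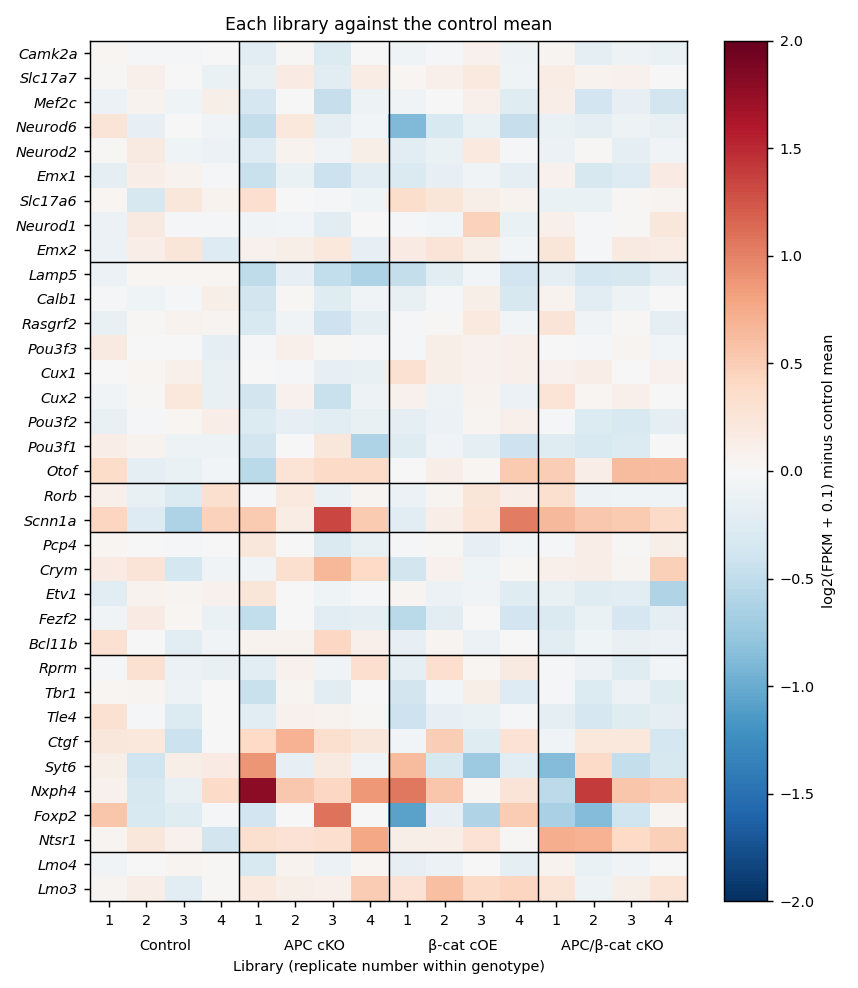
Each library minus the control mean, in log2(FPKM + 0.1), for the 35 genes (rows, by layer) and 16 libraries (columns, by genotype and replicate). Most cells lie near 0, the layer 6 rows Syt6, Nxph4 and Foxp2 vary by library within a genotype, and Lamp5 and Ntsr1 keep 1 colour over the APC cKO and APC/β-cat cKO columns.

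By layer, the mean log2 difference of the 8 layer 6 and 6b genes from the control mean was 0.20 to 0.26 in the 4 APC cKO libraries and -0.14 to 0.17 in the 4 controls. The APC cKO libraries that stood apart in marker genes were replicates 1 and 3, and without them the remaining 2 were at 0.20 and 0.26. Nxph4, Syt6 and Foxp2 had their highest values in libraries high in those lists. Without these 3, the mean over the other 5 was -0.036 to 0.27 in APC cKOs and -0.17 to 0.16 in controls. The groups overlapped. The 5 still include Tbr1, whose 3 lowest values lay in the libraries highest in immature neuron and olfactory genes. For the 9 upper-layer genes the mean was -0.31 to 0.0054 in APC cKOs and -0.035 to 0.022 in controls. β-cat cOEs lay at -0.15 to 0.10 and -0.079 to 0.044, and APC/β-cat cKOs at -0.20 to 0.14 and -0.11 to 0.079. In APC cKOs the medians over the members were 0.19 for layers 6 and 6b and -0.19 for the upper layers, beside -0.0042 over all genes. Summed as FPKM, the layer 6 and 6b group was 128 to 144 FPKM in APC cKOs and 117 to 139 in controls, ranges that overlap. The ratio of Lamp5 to Ntsr1, of levels per length, was 66.0 to 101.4 in controls, 28.2 to 54.8 in the APC cKO line, 50.3 to 59.4 in the β-cat cOE line and 35.8 to 46.9 in the APC/β-cat cKO line. This pair was set together after its values were seen. The ratio of Cux2 to Tbr1 overlapped between APC cKOs and controls, at 0.262 to 0.329 and 0.277 to 0.383.

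Further layer genes that are no members were read from lists of the same kind. Of 10 other excitatory, 10 other upper-layer, 12 other layer 5 and 10 other layer 6 genes, 0 passed with limma in any line against control. At an unadjusted p under 0.05, the counts in APC cKOs were 1 lower, 2 higher, 1 higher with 2 lower, and 1 higher, in that order. Over all genes tested, 10% had such a p in that comparison. Nrgn, the calmodulin-binding neurogranin of excitatory dendrites, was at a log2 difference of -0.26 (limma adjusted p = 0.350) in APC cKOs. The adhesion protein Cdh13 and the endoplasmic reticulum protein Wfs1, listed with the upper layers, were at 0.32 (limma adjusted p = 0.329) and 0.26 (limma adjusted p = 0.485) in APC cKOs, against the direction of Lamp5. Deptor, an inhibitor of mTOR marking layer 5, was at -0.53 (limma adjusted p = 0.405) in APC cKOs and -0.56 (limma adjusted p = 0.281) in APC/β-cat cKOs, and Npr3 at -0.43 (limma adjusted p = 0.392) in APC cKOs. In layer 6, the nuclear receptor Nr4a2 was at 0.99 (limma adjusted p = 0.310) in APC cKOs and the kainate receptor subunit Grik3 at -0.22 (limma adjusted p = 0.289) in APC/β-cat cKOs. The medians of the 4 lists in APC cKOs were -0.11, -0.0035, -0.12 and -0.12 log2 units, where the median of the 8 layer 6 and 6b members was 0.19. Lower in APC cKOs were 6 of the 10 other layer 6 genes and 2 of the 8 members. Of the 10 other upper-layer genes 5 were lower and 5 higher.

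Markers of other cells differed beside these values. In APC cKOs 4 of 6 oligodendrocyte genes had an unadjusted p under 0.05, all lower, with sums of 626 to 751 FPKM against 712 to 1089 in controls. In APC/β-cat cKOs all 6 were higher, 3 of them at an unadjusted p under 0.05, with sums of 914 to 1032. Of 6 microglia genes all were higher in that line and 3 had an unadjusted p under 0.05. Their sums were 134.6 to 154 FPKM against 124 to 134.4 in controls, which do not overlap. Of single genes tested, 5.21% did not overlap in that comparison. Of 6 astrocyte genes 5 were higher in APC cKOs, 2 at an unadjusted p under 0.05, with overlapping sums of 646 to 745 FPKM against 612 to 716. Of 8 interneuron genes, 3 were lower at an unadjusted p under 0.05 in APC cKOs, with sums of 847 to 952 FPKM against 937 to 1155, and Lamp5 is itself carried by some interneurons. For comparison, an unadjusted p under 0.05 against control was reached by 10% of all genes tested in the APC cKO line. The share was 14.2% for the double mutant, APC/β-cat cKO. None of these marker genes passed an adjusted p of 0.05, and their part in the values of the layer genes was not tested. Exons of Cux1, Ctgf, Pou3f1, Syt6, Neurod1 and Emx2 overlap a gene on the opposite strand, and those of Pcp4 and Neurod1 one on the same strand. The library kit keeps the strand, but whether counting used it is not stated.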

How the data were processed

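The 35 genes and all other lists were chosen with earlier results of these data known. Per the labels, polyadenylated RNA of prefrontal cortex was made into TruSeq stranded mRNA libraries. The authors mapped reads to mm10 with TopHat2 2.0.10 and made FPKM with Cufflinks and Cuffdiff 2.1.1 (the submitters' processing notes). The deposited columns hold log2 values, taken to be log2(FPKM + 1), since base 2 gives sums of 452831 to 496015 FPKM per library, and natural logs at least 4699269. The test had been planned for FPKM, so values were turned back to FPKM. limma 3.58.1 (R 4.3.3) with a mean-variance trend was fitted to log2(FPKM + 0.1) of all 16 libraries, 4 genotypes with 12 residual degrees of freedom, for the 13978 genes averaging 0.5 FPKM or more, with Benjamini-Hochberg adjustment over all of them. Fold changes on this scale understate those of low genes. Single values used two-sided exact permutation tests (scipy 1.17.1), run only where the unadjusted limma p was under 0.05. Their p is not adjusted, and groups that do not overlap always give the smallest possible value. The method was tested on simulated data. No fragment counts are given, so depth is unknown. Alternatives were another pseudocount, filter, scaling, variance model, threshold or set of samples, sex or the replicate number as a term, each library left out, and, chosen after seeing the data, libraries high in marker genes left out, marker levels as covariates and column sets as a block. Values per library are named for members with an unadjusted p under 0.05 against control, with groups that do not overlap, or that lead their group. From other lists, the 2 genes with the smallest p were named, except 1 that is not reported here. Sequences are from RefSeq.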

Additional observations from a re-analysis of the deposited data

Results flagged for a closer look

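In 11 of the 140 sets of 4 libraries (35 genes in 4 genotypes), the highest or lowest library stood apart by a gap that, divided by the range of its group, exceeded Dixon's critical value for 4 samples, where chance gives about 1 in 20, or 7.0 sets. In controls these were Lamp5, at 126 FPKM in replicate 1 against 139.7 to 141 in the others, Etv1, at 20.3 FPKM in replicate 1 against 24.6 to 25.1, and Syt6, at 7.87 FPKM in replicate 2 against 11.2 to 11.7. In APC cKOs they were Slc17a6, at 7.40 FPKM in replicate 1 against 5.49 to 5.82, Otof, at 1.92 FPKM in replicate 1 against 3.48 to 3.75, Bcl11b, at 16.2 FPKM in replicate 3 against 12.7 to 12.9, and Ntsr1, at 3.16 FPKM in replicate 4 against 2.23 to 2.30. In β-cat cOEs they were Neurod1, at 7.87 FPKM in replicate 3 against 5.13 to 5.52, and Cux1, at 24.1 FPKM in replicate 1 against 20.7 to 21.1. In APC/β-cat cKOs they were Rorb, at 5.68 FPKM in replicate 1 against 4.24 to 4.28, and Crym, at 119 FPKM in replicate 4 against 88.9 to 93.4. The remaining 3 Ntsr1 values of APC cKOs lay above the 4 controls, and the Lamp5 value of control replicate 1 lay above the 4 APC cKOs. Both follow from groups already known not to overlap, so they are no further check.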

How the results depend on the processing

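Under the alternatives, no member's difference changed sign among those named with an unadjusted p under 0.05 (34 values, 983 refits), and 2 refits crossed the threshold. These values were picked by that p in the main fit, and the refits share most of their libraries. The lack of a sign change is therefore no separate support. In APC cKO against control, the count of members called ran from 0 to 1 over leaving out each library, where the 1 is Lamp5 without APC cKO replicate 2, and in any difference among the genotypes it ran from 0 to 1 as well. In APC cKO against APC/Bcat cKO and in any difference among the genotypes, it was 1 with both marker lists as covariates, a fit chosen after seeing the data. In the other 6 comparisons with these covariates, and in all 8 comparisons under the other scalings, filters, pseudocount, variance model and covariates run, with only the groups compared and without the libraries high in marker genes, it was 0. At an unadjusted p under 0.05 the counts were 7 for APC cKO against control, 5 for Bcat cOE against control and 6 for APC/Bcat cKO against control. They were 6 for APC cKO against APC/Bcat cKO, 2 for Bcat cOE against APC/Bcat cKO, 5 for APC cKO against Bcat cOE, 3 for elevated lines against the other 2 groups and 6 for any difference among the genotypes. Over leaving out each library, these unadjusted counts ran from 5 to 13, 3 to 7, 3 to 7, 3 to 9, 1 to 5, 2 to 7, 3 to 8 and 5 to 10, in the same order. With sex as a covariate the Bcat cOE count was 8, and with both marker lists as covariates the 3 counts against control were 6, 8 and 12. The share of all genes at an unadjusted p under 0.05 was not read in these refits. With a replicate block by the number in the title, the count of members called was 0 in each comparison. What the title numbers mark is not stated. Same-numbered libraries had a median correlation of deviations of -0.069 (-0.22 to 0.32 over 21 pairs). Libraries of different numbers had a median of 0.0053 (-0.28 to 0.22 over 75 pairs). These values cannot show whether the libraries were paired. Quantile and median-of-ratios scaling left the median log2 difference of all genes in each comparison between -0.0051 and 0.0054.

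The limits are the 4 libraries per genotype, an unknown depth, striatal and olfactory marker genes whose level varied several-fold between libraries, a single Cre line, and controls pooled from all lines. Members with the widest intervals (Scnn1a, Foxp2, Syt6, Nxph4) allow differences of more than 1.41-fold in either direction or both.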
